A study of Drosophila melanogaster with 2 samples.

Results

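The regions described here are the sites on the X chromosome of Drosophila melanogaster at which GFP-tagged Ovo was found away from promoters. They are the peaks of the thresholded list on X whose summit, the single position that the list gives for each peak, lay more than 500 bp from every annotated transcription start site (TSS) of a protein-coding gene. By this rule 410 of the 1031 thresholded peaks on X were taken, out of 4477 peaks in the whole genome. They were set against the 1216 autosomal peaks chosen by the same rule, and in places against the 621 X peaks that lay closer to a TSS. The ChIP-seq material was whole adult female flies of unknown age from 1 transgenic line that stably expresses Ovo fused at its C terminus to eGFP, precipitated with an antibody to GFP. Both libraries, biological replicates 1 and 4, carry the transgene, so there is 1 group and no contrast between conditions. Sonicated chromatin had a size range of 200 to 800 bp. Whole flies hold many tissues, and the peaks do not tell in which of them a region was bound.

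Ovo is a DNA-binding protein with C2H2 zinc fingers that the female germ line of the fly needs to survive and to mature eggs. The same X-linked locus also makes the epidermal form called Shavenbaby, with the same zinc fingers and another N terminus, which directs the formation of cuticular hairs. Its DNA-binding domain recognises a short core, TAACNGT, where N is any base. Sites away from promoters, in introns and between genes, are where many developmental enhancers of the fly lie; whether any region named here acts as one was not measured.

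The sequences that follow show the DNA under the summits, from the strong peaks with a core site, from 2 peaks with a palindromic pair of sites and from strong peaks without one. Each is the plus strand of 101 bp centred on the summit, in the RefSeq Release 6 genome (dm6), printed 5′ to 3′. Capitals mark TAACNGT, which appears as ACNGTTA where it lies on the minus strand. Peaks whose window touches an untranslated region are not among them.

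The strongest X peak with a core site lay in the first intron of Ubr3, which encodes a ubiquitin ligase, at chrX:7938442-7938542. The others with a single site lay beyond the end of inc, an adaptor of Cullin 3 (chrX:1517747-1517847), in rictor, a subunit of the kinase complex TORC2 (chrX:19260570-19260670), in the glutamine synthetase gene Gs2 (chrX:11426143-11426243), in Tlk, the gene of Tousled-like kinase (chrX:3775283-3775383), and in Raf, a kinase of the MAP kinase cascade (chrX:2297913-2298013).
Ubr3: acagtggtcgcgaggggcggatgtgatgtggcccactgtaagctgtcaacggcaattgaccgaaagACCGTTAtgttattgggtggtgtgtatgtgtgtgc
inc: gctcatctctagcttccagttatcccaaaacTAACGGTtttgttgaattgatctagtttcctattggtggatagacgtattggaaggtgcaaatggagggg
rictor: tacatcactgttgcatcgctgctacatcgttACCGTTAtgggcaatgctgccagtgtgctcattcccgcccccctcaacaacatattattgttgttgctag
Gs2: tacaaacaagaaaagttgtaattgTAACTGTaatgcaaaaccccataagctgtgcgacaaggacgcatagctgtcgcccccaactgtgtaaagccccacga
Tlk, with site: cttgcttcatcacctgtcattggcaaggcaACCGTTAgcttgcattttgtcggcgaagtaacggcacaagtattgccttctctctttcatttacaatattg
Raf: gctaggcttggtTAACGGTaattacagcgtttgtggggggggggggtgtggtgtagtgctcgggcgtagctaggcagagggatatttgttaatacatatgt

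In 9 X windows, 2 core sites on opposite strands overlapped as TAACNGTTA. In the intron of Myc, a growth regulator of the bHLH-zipper family (chrX:3382263-3382363), one site of such a pair was centred on the summit. In CG14434 (chrX:6861825-6861925) the nearer site of the pair was centred 1 bp from the summit.
Myc: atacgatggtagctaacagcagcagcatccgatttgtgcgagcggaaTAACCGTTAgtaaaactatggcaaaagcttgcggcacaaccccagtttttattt
CG14434: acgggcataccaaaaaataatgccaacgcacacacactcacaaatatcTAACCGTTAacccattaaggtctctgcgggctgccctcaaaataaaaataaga

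Among the 3 peaks of highest score of the 410, 2 held no TAACNGT. These lay in Tlk (chrX:3742143-3742243) and in Lsd-2, the perilipin-like gene of lipid droplets (chrX:15075619-15075719). The Lsd-2 window held the shorter hexamer TAACGG at 2 positions and the Tlk window at 0.
Tlk, without site: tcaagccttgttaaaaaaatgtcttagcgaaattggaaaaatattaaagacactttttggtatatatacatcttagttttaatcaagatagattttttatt
Lsd-2: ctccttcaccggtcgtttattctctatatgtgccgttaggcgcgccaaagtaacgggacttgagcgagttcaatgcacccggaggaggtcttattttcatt

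X carried more of these peaks for its length than any autosomal arm. Per Mb of sequence lying over 500 bp from a coding TSS, X held 19.6 peaks (410 in 20.9 Mb, 95% Poisson interval 17.7 to 21.6). The 4 large autosomal arms together held 12.6 (1213 in 96.4 Mb), with 13.6 on arm 2L, 13.2 on 2R, 11.6 on arm 3L and 12.2 on 3R. Chromosome 4 had 3 such peaks. The ratio of X to the large arms was 1.55 (95% interval 1.39 to 1.74; exact conditional binomial test, two-sided, adjusted p = 6.56e-13 over the 7 comparisons of X with autosomes). Peaks at promoters were also denser on X, with 26.4 per Mb of the whole arm (621 peaks) against 20.4 on the large arms (2222). Per Mb of sequence within 500 bp of a coding TSS they numbered 239.5 on X and 176.0 on the large arms. These differences were not tested. Within introns alone the density of peaks away from promoters was 30.8 per Mb of intron on X and 20.2 on the large arms, a ratio of 1.52. In the weak end of the authors' pooled list, ranks 15001 to 30000, the ratio was 1.04 (adjusted p = 0.137). These intervals treat peaks as independent, which neighbouring peaks are not, and cover the counting of peaks only.

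Of all X peaks, 39.8% lay away from promoters, against 35.3% of the autosomal peaks. The odds ratio was 1.21 (1.05 to 1.40, two-sided Fisher's exact test, adjusted p = 0.0171). With a limit of 1000 bp from the TSS it was 1.19 and did not pass 0.05 (Fisher's exact test, adjusted p = 0.0770), nor did it pass in the list of replicate 1 alone (1.15, adjusted p = 0.0675), while in that of replicate 4 alone it was 1.29. Fewer peaks lay just beyond the limit of the rule than just within it: on X, 50 summits lay at 301 to 400 bp from the nearest TSS and 51 at 401 to 500 bp, while 25 lay at 501 to 600 bp and 28 at 601 to 700 bp.

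Most of the X peaks lay in introns, as did those of the autosomes. On X 298 of 410 summits (72.7%) were intronic and on the autosomes 858 of 1216 (70.6%), an odds ratio of 1.11 (0.860 to 1.44, Fisher's exact test, two-sided, adjusted p = 0.525). A first intron held 216 of the X summits (52.7%) and 54.0% of the autosomal ones. Outside protein-coding genes lay 78 X summits (19.0%, against 21.3%). The remaining X summits were in 3′ UTRs (16), 5′ UTRs (13) and coding exons (5). The nearest TSS was a median of 2032.5 bp away on X, with quartiles at 967.5 and 4661.5 bp, and 1960.5 bp away on the autosomes. On X 110 summits lay 501 to 1000 bp from a TSS, 91 lay over 5 kb away and 34 over 10 kb away. The farthest, 42078 bp from a TSS, was in an intron of mamo, a zinc-finger gene needed in oogenesis.

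The rule counted start sites of protein-coding genes only. Of the 410 X summits, 20 (4.88%) lay within 500 bp of the start of a non-coding gene, against 7.98% on the autosomes. A non-coding gene spanned 57 X summits (13.9%, against 6.66%; the difference was not tested). A single long non-coding RNA gene, lncRNA:CR44999, which overlaps Myc and CG12535, spanned 11 of them.

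**Figure D1:**
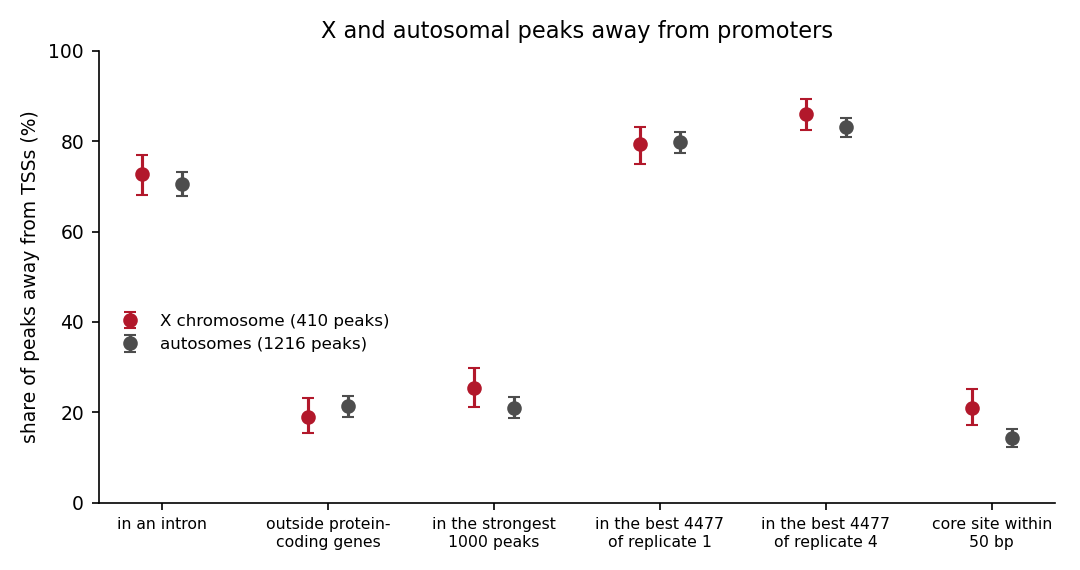
Share of X (410) and autosomal (1216) peaks away from promoters, in percent, that lay in an intron, outside protein-coding genes, in the strongest 1000 peaks, in the best 4477 of replicate 1, in the best 4477 of replicate 4 and with a core site within 50 bp of the summit; points are shares and bars are 95% Clopper-Pearson intervals. The core site pair stands apart, at 21.0% against 14.2%, while the intron shares of 72.7% and 70.6% overlap in their intervals.

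Some of the X peaks were among the strongest of the genome, and their median rank was 2266 against 2464 for the autosomal ones. The authors' score, which stands in the column that the peak format gives to enrichment and is used here only to rank peaks, had a median of 115.5 on X (75.4 to 915) and 110.7 on the autosomes. Of the X peaks 104 (25.4%) were among the strongest 1000, against 256 (21.1%) of the autosomal peaks. The odds ratio of 1.27 (0.970 to 1.67) did not pass the threshold (Fisher's exact test, two-sided, adjusted p = 0.103). By the same exact test it passed by the ranks of replicate 1 alone (24.9% against 19.6%, odds ratio 1.36, adjusted p = 0.0345) and not by those of replicate 4 (23.9% against 19.9%, 1.26, adjusted p = 0.129).

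The strongest X peak away from promoters lay in the first intron of Tlk (X, 3741906 to 3742380), 2296 bp downstream of a TSS. Its score was 915, rank 5 of the 4477, and its rank was 4 in replicate 1 and 7 in replicate 4. The peak in the first intron of Ubr3 (X, 7938337 to 7938681) followed with a score of 872, at rank 10 in replicate 1 and 5 in replicate 4. The peak in Lsd-2 (X, 15075501 to 15075812), 551 bp inside the gene, scored 813 at ranks 5 and 16. These 3 therefore stood among the first 16 peaks of each replicate's own list.

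Behind them came peaks in a 3′ UTR of CG16989 (score 582, ranks 54 and 22 in replicates 1 and 4), beyond CG4004 (548, ranks 42 and 49) and in CG32772 (532, ranks 59 and 34). The inc peak, 4727 bp downstream of the start of the gene, scored 525 at ranks 50 and 45. The rictor peak scored 517 at ranks 41 and 57. These peaks held places within the first 60 in both replicates.

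A peak 1064 bp upstream of Hex-A, a hexokinase gene, scored 465 and ranked 46 in replicate 1 and 129 in replicate 4. The Gs2 peak shown above scored 453 at ranks 82 and 77. The strongest peak at ovo itself, 1287 bp upstream of its first TSS, scored 441 at ranks 181 and 56. A peak in CHES-1-like, a forkhead factor, scored 433 at ranks 248 and 47. Those at ovo and CHES-1-like ranked better in replicate 4, that at Hex-A in replicate 1, and Gs2 ranked alike in both.

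The last 7 of the strongest 20 had scores from 399 to 421. They lay in Cdc7, a kinase of DNA replication (ranks 87 and 114 in replicates 1 and 4), in the 3′ UTR of the actin gene Act5C (107 and 109), at a further site in Tlk (100 and 136) and in Mnt, the antagonist of Myc (148 and 93). The others were in Tre1, a receptor needed for germ cell migration (99 and 118), norpA, the phospholipase C of vision (72 and 188), and Raf (122 and 116).

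**Figure D2:**
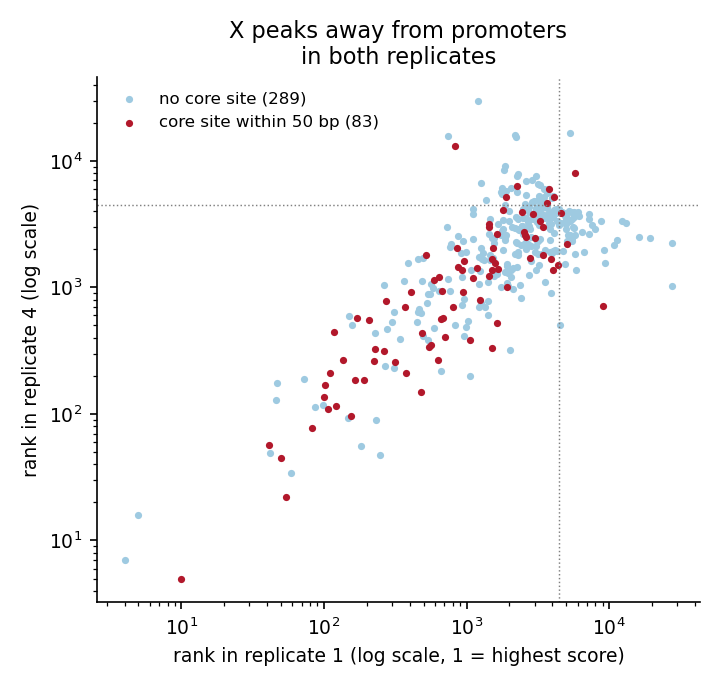
Rank of each X peak away from promoters in replicate 1 (x axis) and replicate 4 (y axis), both on log scales with 1 as the highest score, for the 372 peaks with a summit within 100 bp in both relaxed lists; marks separate peaks with and without a core site. The points run along the diagonal with wide scatter, and 191 peaks ranked better in replicate 1 and 181 in replicate 4.

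Across all X peaks, 276 of 410 (67.3%) had a summit within 100 bp among the best 4477 of both replicates, against 798 (65.6%) of the autosomal peaks. The odds ratio was 1.08 (0.845 to 1.38, Fisher's exact test, two-sided, adjusted p = 0.547). The count was 325 (79.3%) in replicate 1 and 353 (86.1%) in replicate 4, and 8 X peaks were in the best 4477 of neither. The thresholded list was drawn from both replicates, so a place in both lists is in part fixed by it. The ranks of the 372 X peaks present in both lists had a Spearman correlation of 0.644, and those of 1125 autosomal peaks one of 0.664, given as a description of peaks that share libraries. The X peak of lowest rank, 4433, was in Gclc, with a score of 75.4 and ranks of 13132 in replicate 1 and 3212 in replicate 4.

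A core site was found under X summits more often than under autosomal ones. Within 50 bp of the summit, on either strand, TAACNGT was present at 86 of 410 X peaks (21.0%, 95% Clopper-Pearson interval 17.1% to 25.2%). Of all autosomal peaks tested 14.2% had it (173 of 1216). The odds ratio was 1.60 (1.19 to 2.15, Fisher's exact test, two-sided, adjusted p = 0.00408). Each autosomal arm with more than 3 peaks was lower than X, with 14.2% on arm 2L, 15.4% on 2R, then 13.7% on 3L and 13.8% on 3R. In some narrower sets by class, width and TSS distance, given next, the X share was also higher but did not pass 0.05. By the same exact test, intronic peaks had 19.1% against 14.2% (adjusted p = 0.0888). Peaks outside protein-coding genes had 21.8% against 13.1% (Fisher's exact test, adjusted p = 0.103). Peaks 440 bp wide had 17.4% against 13.3% (Fisher's exact test, adjusted p = 0.0856). With a limit of 1000 bp from the TSS the shares were 17.3% and 12.9% (Fisher's exact test, adjusted p = 0.0937).

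The site was more frequent at X summits than in windows centred 500 bp to either side. Windows of the same size centred 500 bp to either side of X summits held it in 29 of 820 cases (3.54%), and autosomal ones in 3.25%. The summit share on X was 5.93 times the flanking share (two-sided exact McNemar test, p = 4.52e-15 against the left flank and 1.20e-13 against the right). In peaks of the weak end of the pooled list the X summit share was 2.63% and the ratio to the flanks 1.21 (exact McNemar test, p = 0.387). Of the 86 peaks with a site, 60 (69.8%) had one centred within 25 bp of the summit, and the median distance was 19.5 bp. On the autosomes these were 70.5% and 18 bp.

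**Figure D3:**
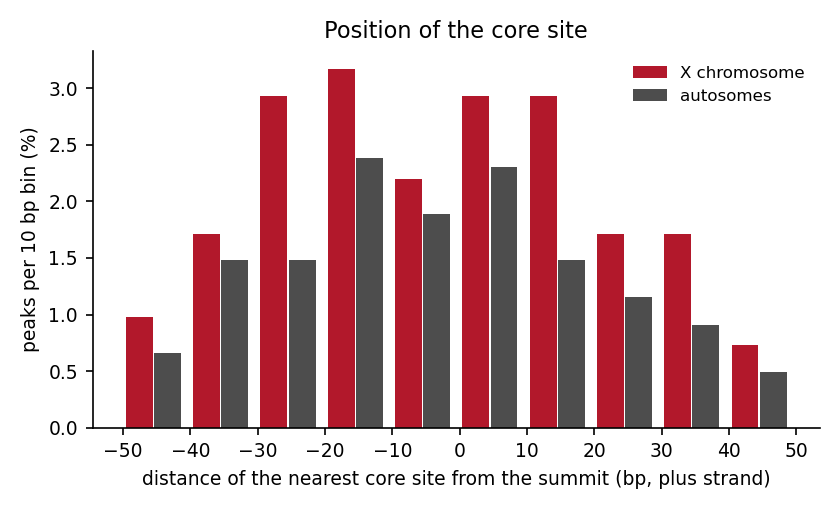
Distance of the nearest core site from the summit, in bp along the plus strand, in bins of 10 bp, as the percentage of all X or all autosomal peaks away from promoters. In both sets the sites gather around the summit, with 69.8% of the X and 70.5% of the autosomal sites centred within 25 bp of it.

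The form with G at the free position accounted for most of the sites. TAACGGT was at 63 X peaks (15.4%) and 102 autosomal ones (8.39%), TAACTGT at 20 (4.88%) and 50 (4.11%), TAACCGT at 10 (2.44%) and 19 (1.56%), and TAACAGT at 5 (1.22%) and 22 (1.81%). These differences between forms were not tested. The overlapping pair TAACNGTTA was at 9 X peaks (2.20%) and 13 autosomal ones (1.07%). The hexamer TAACGG, chosen with its frequency at all peaks known, was at 95 X summits (23.2%) and in 1.95% of X flanks. On the autosomes it was at 201 summits (16.5%) and in 2.01% of flanks. It was present without a full TAACNGT at 31 X peaks (7.56%) and 7.73% of the autosomal ones, and one or the other was at 117 X peaks (28.5%) and 267 autosomal ones (22.0%). The permuted pattern TNACAGT, which equals one form of the site when N is A, was at 4.63% of X summits and 4.15% of X flanks. Of the sites of other factors, GAGAGAG, bound by GAGA factor, was at 5.85% and 3.78%, the repeat CACACACA at 7.07% and 4.02%, and CACCTG, a form of the E-box, at 4.39% and 3.05%. The DRE, TATCGATA, was at 3 X summits and in 1 flanking window, and at 3 autosomal summits and in 8 autosomal flanking windows. The autosomal summit and flank shares were 6.66% and 4.61% for TNACAGT and 5.84% and 2.47% for GAGAGAG. They were 5.67% and 4.40% for CACACACA and 4.28% and 2.92% for CACCTG. All motifs were searched on both strands. A match is a run of letters and was not tested for binding.

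The share of X peaks with a core site was highest among the peaks of highest score. In 5 bins of 82 peaks each, from the highest scores to the lowest, 36, 22, 13, 11 and 4 peaks had a site (43.9%, 26.8%, 15.9%, 13.4% and 4.88%). The same 5 bins of the autosomal peaks had 26.3%, 16.5%, 8.23%, 10.3% and 9.84%. X was thus higher in the first 4 bins and lower in the last. Among the strongest 1000 peaks the shares were 41.3% on X and 25.4% on the autosomes (odds ratio 2.07, Fisher's exact test, two-sided, adjusted p = 0.00815). Outside them they were 14.1% and 11.3% (1.29, Fisher's exact test, adjusted p = 0.265); whether these 2 odds ratios differ was not tested. X promoter peaks had a site in 98 of 621 cases (15.8%, interval 13.0% to 18.9%) and autosomal promoter peaks in 13.2%. The base composition at the summits was close, with a mean GC content of 42.7% at X and 43.7% at autosomal peaks; its part in the difference was not tested.

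**Figure D4:**
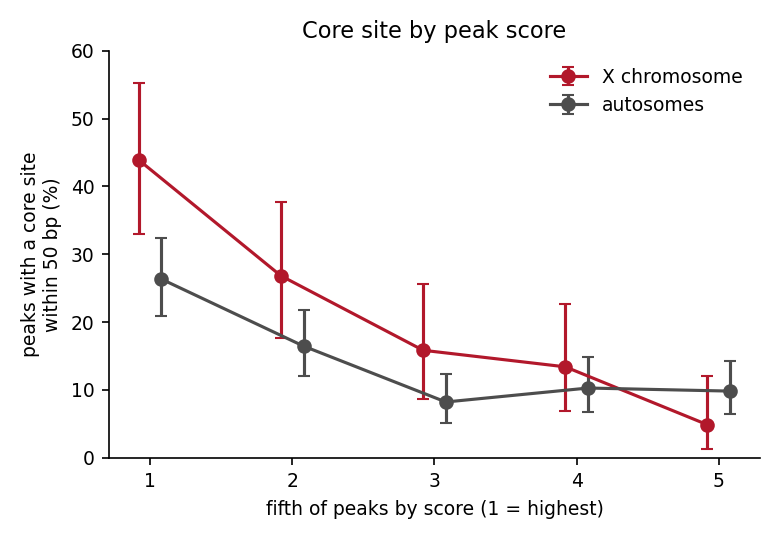
Percentage of peaks away from promoters with a core site within 50 bp of the summit, in 5 bins of peaks ordered by score within X (82 peaks each) and within the autosomes (243 or 244 each), with 95% Clopper-Pearson intervals. The share fell from 43.9% to 4.88% on X and from 26.3% to 9.84% on the autosomes.

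Strength and site were not tied peak by peak. Of the 3 strongest X peaks only that of Ubr3 held TAACNGT, and both Mnt, with 8 peaks inside the gene, and Lsd-2, with 6, had none with a site. The peak of Tlk at rank 5 had a window of low GC content, 22.8%. Conversely the weak CG14434 peak with an overlapping pair of sites had a score of 89.1 and ranks of 5802 in replicate 1 and 8091 in replicate 4.

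The X peaks away from promoters lay closer together than the autosomal ones. Another such summit lay within 5 kb of 267 X peaks (65.1%) and of 577 autosomal peaks (47.5%), an odds ratio of 2.07 (1.63 to 2.63, Fisher's exact test, two-sided, adjusted p = 2.00e-09). By arm the shares were 55.5% for 2L, 43.5% for 2R, 43.8% for 3L and 47.7% for 3R. The median distance to the next such summit was 2498 bp on X and 6141.5 bp on the autosomes. A higher density by itself brings summits closer, and the part of density in this difference was not tested. Some neighbours were adjoining calls: the smallest distance between X summits was 199 bp, and 68 X peaks (16.6%) and 136 autosomal ones (11.2%) had another summit within 250 bp. After summits within 1 kb were merged the shares were 51.8% and 34.8%, with an odds ratio of 2.01 and, by Fisher's exact test, adjusted p = 1.33e-07. Having a neighbour is mutual, so peaks enter these counts in linked sets. The exact tests and the interval treat peaks as independent and are too narrow for such counts. A promoter peak lay within 5 kb of 202 X peaks (49.3%) and of 41.1% of the autosomal ones.

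With gaps of at most 5 kb, the 410 X peaks formed 230 groups, of which 143 were single peaks, 46 were pairs and 23 were triples. There were 18 groups of 4 or more, which held 106 peaks (25.9%). On the autosomes 33 such groups held 167 peaks (13.7%). The X peaks in these groups had a core site in 22 of 106 cases (20.8%) and the other X peaks in 64 of 304 (21.1%). Of the grouped peaks 31.1% were in the strongest 1000, and of the other X peaks 23.4%.

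The largest group had 11 summits over 12587 bp at CHES-1-like (X, 7682338 to 7709385, minus strand). Of them, 9 lay in introns and 2 upstream of the gene, and 3 had a core site. Scores ran from 81.7 to 433, and 7 of the 11 were in the best 4477 of both replicates. A further intronic summit, outside the group, brought the peaks inside the gene to 10.

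Near Lsd-2 the 7 summits of the group ran from 85.7 to 813 in score, none with a core site, and 6 were in the best 4477 of both replicates. The summit next in strength to the one shown above stood 2497 bp upstream of the TSS with a score of 232, at ranks 527 in replicate 1 and 758 in replicate 4. The other 5 scored at most 170.

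At Raf (X, 2295466 to 2343870, plus strand) 7 summits lay within 8717 bp of the TSS. The scores in order along the gene were 161, 130, 399, 190, 140, 109 and 98.7. Their ranks in replicate 1 were 1550, 3571, 122, 947, 3933, 3966 and 7220, and in replicate 4 they were 1242, 1974, 116, 925, 904, 1854 and 2642. The summits of score 399 and 190, which adjoin each other, ranked best in replicate 1 and each held a core site. In replicate 4 the summit of score 140 ranked just ahead of that of 190. The summits of score 161 and 130, and those of 109 and 98.7, also belonged to overlapping calls.

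Smr, which encodes the corepressor Smrter (X, 12684203 to 12742618, minus strand), held 10 summits in its first and second introns, at scores from 102 to 375. A run of 7 of them lay 10202 to 17681 bp from the nearest TSS and formed a group. The strongest, outside that group, ranked 232 in replicate 1 and 90 in replicate 4. Smr had no promoter peak.

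At Tlk (X, 3720007 to 3789770, plus strand) 9 summits lay in introns, 6 of them in a group of 6687 bp with scores from 86.4 to 413. The peak at rank 5 of the genome lay in another stretch of the gene, beside summits of 213 and 199 in score. At Mnt (X, 3671801 to 3701672, plus strand) 6 of its 8 summits formed a group in the first intron. The strongest there scored 411 and the others 148 or less.

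Myc (X, 3373159 to 3391697, plus strand), whose protein shares the partner Max with Mnt, had a group of 7 summits and no promoter peak. The 2 upstream summits, 3505 and 1740 bp before the TSS, scored 241 and 188. Inside the gene the summits at 713, 1310, 4617, 9154 and 9360 bp scored 120, 254, 126, 235 and 97.7. The palindromic pair of sites shown above lay under the summit at 9154 bp, with ranks of 1053 in replicate 1 and 387 in replicate 4. The summit at 4617 bp differed most between replicates, at rank 741 in replicate 1 and 15743 in replicate 4. An eighth summit lay 15307 bp upstream, with a score of 92.8 and no match in replicate 1.

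The gce gene (X, 15297766 to 15319074, plus strand), which encodes a juvenile hormone receptor, held 8 summits with scores from 88.7 to 279. The strongest, 609 bp before an inner TSS, ranked 231 in replicate 4 and had no summit within 100 bp in the list of replicate 1. Tis11, a factor in the decay of AU-rich mRNAs (X, 12659415 to 12682560, plus strand), had 6 summits spread from 2595 to 16503 bp along its first intron, all with scores of 190 or less.

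Some groups lay mostly outside protein-coding genes. At Act5C 5 of 6 summits were upstream of the gene, from 596 to 7030 bp before the TSS, with scores from 89.9 to 280. The sixth was the 3′ UTR peak, of score 414. Between CG4004 and Paics, an enzyme of purine synthesis, 6 of 7 summits lay outside protein-coding genes and scored 89.3 to 548. The non-coding genes lncRNA:Vinr and lncRNA:CR44619 spanned 2 of these each, and lncRNA:CR45668 spanned several of the summits upstream of Act5C. Upstream of Hex-A 3 summits scored 88.5, 132 and 465, and formed a group with 2 in LPCAT. The smaller groups, of 4 summits each, were at Cdc7 with CG3224 and Ctr1A, at CG14434 with CG43736, at fs(1)h with mys, and at bif, CG42258 and Pits. In those at fs(1)h and CG42258, 1 of 4 summits was in the best 4477 of both replicates, and in those at Cdc7 and bif 4 of 4.

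**Figure D5:**
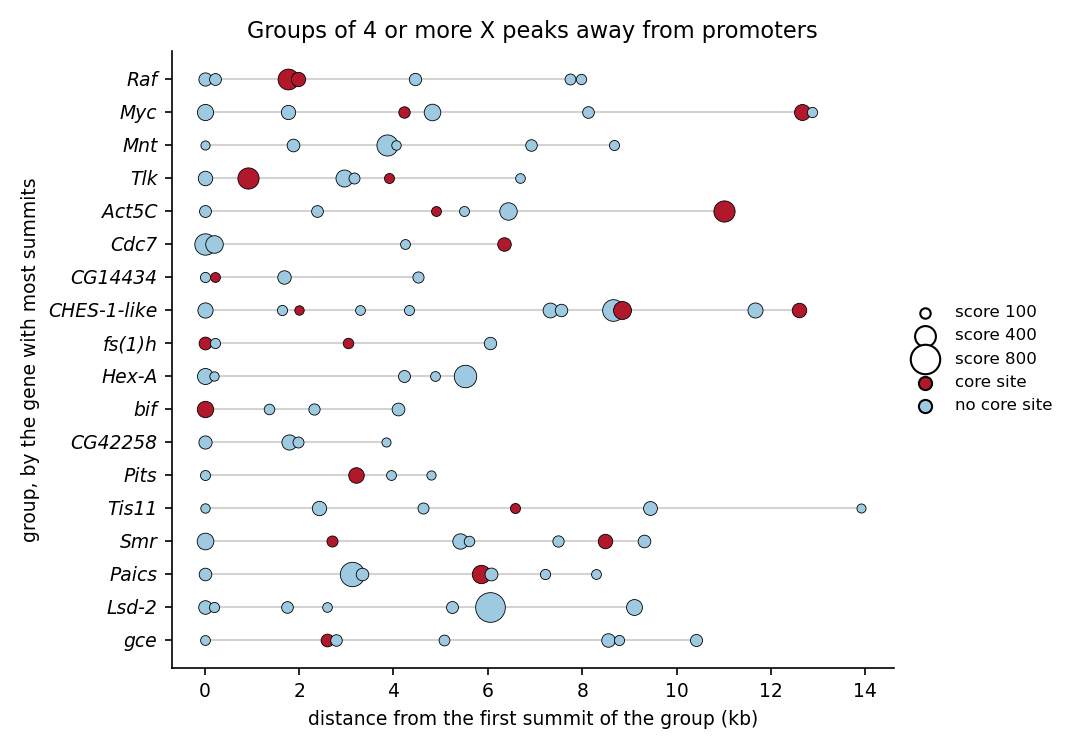
The 18 groups of 4 or more X peaks away from promoters, 1 per row and named for the gene with most summits; the x axis is the distance from the group's first summit in kb, each circle is a summit with an area proportional to its score, and dark circles have a core site within 50 bp. CHES-1-like has 11 summits, and the circles at Mnt, Hex-A, CG42258 and Lsd-2 are all without a site.

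Counted by gene, 332 of the 410 summits lay inside 169 protein-coding genes, which is 7.7% of the 2196 on X. Of these hosts 87 held 1 summit and 23 held 4 or more. Those 23 held 127 of the summits, and 21 summits lay in 2 overlapping genes. Hosts were long genes, with a median length of 14223 bp against 2521 bp for all coding genes of X, so a count of hosts in a gene list has to be read with the length of its genes. A promoter peak was also present at 106 hosts (62.7%), against 28.6% of all X coding genes; this was not tested, and hosts differ from other genes in length.

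The other genes with 4 or more summits were CG12535 (5, best score 277), CG1677 (5, 157), mgl, a lipoprotein receptor of the LDL receptor family (4, 197), and NFAT (4, 178). The 4 summits of Mur2B and of br, the Broad factor of the ecdysone response, were the same ones, since the genes overlap; the best scored 137. The adhesion gene kirre, 394149 bp long, had 4 with a best score of 109. mamo had 6 with a best score of 235, and fs(1)h, a bromodomain protein of the BET family with a maternal role, had 5 with a best score of 168. Of the genes with 4 or more, Smr, Raf, Myc, mgl, br, Mur2B and kirre had no promoter peak.

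At a host gene the nearest start was usually its own. Of the 332 X summits inside coding genes, 275 had the nearest TSS in the gene that held them and 57 in another gene. As shares of all 410 X peaks these were 67.1% and 13.9%, against 68.7% and 10.03% of all autosomal peaks. Of the 78 summits outside coding genes, 48 were upstream of the nearest TSS and 30 downstream, near 55 different genes. Act5C was nearest to 5 of them, Hex-A and Paics to 4 each, and Myc and peb to 3 each. One of them, 580 bp upstream of Hsc70-3, the gene of the endoplasmic reticulum chaperone BiP and chosen after its values were seen, was a peak of score 399 at ranks 156 in replicate 1 and 97 in replicate 4.

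The ovo gene (X, 5048273 to 5070929, plus strand) had 4 intronic summits away from its starts and 2 upstream. The upstream pair, 1287 and 1086 bp before the first TSS, scored 441 and 112. The intronic summits scored 115, 95.4, 104 and 120 in order along the gene. Their ranks in replicate 1 were 4359, 9152, 2696 and 1429, and in replicate 4 they were 1508, 1958, 3040 and 2998. The first and the last of these held a core site. The flies carry an ovo transgene, and how much of the locus it contains is not given in the sources used here; its part in these peaks was not tested. Without the ovo gene and 20 kb on either side, the core site odds ratio was 1.59 and the density ratio 1.53.

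In a list of 44 X genes of oogenesis and the germ line, 6 (13.6%) held a summit away from promoters. They were mamo with 6 summits, fs(1)h with 5, ovo with 4, nej, the CBP acetyltransferase, with 2 (best score 122), and Sxl, the switch of sex determination (108), and arm, the fly beta-catenin (80.5), with 1 each. Of the 44, 16 had a promoter peak, beside 28.6% of all X coding genes, and 27 had neither kind. The ovarian tumour gene otu, a known target of Ovo, held no summit of this kind and had 1 promoter peak. The median length of the 44 genes was 4720 bp.

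Of 39 X genes for transcription factors and cofactors, 13 (33.3%) held 43 summits. The highest scores were those of Mnt (411), Smox, a Smad of activin signalling (386), ewg, a factor of muscle and neuron development (269), and Myc (254). The others were mamo, CrebB (227), fs(1)h, Dsp1 (155), br, Hr4 (125), nej, ovo and Bx (101). The homeobox gene ct held none, though 1 summit of score 117 lay 3875 bp upstream of it. The median length in this list was 16031 bp.

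Of 35 X genes for signalling, adhesion and polarity, 10 (28.6%) held 21 summits. Raf led with a score of 399, followed by the small GTPase Rala (286), the growth factor Pvf1 (221) and the GTPase Cdc42 (146). The remaining hosts were mew (143), mys (142), Fas2 (132), kirre, baz (98.0) and arm. Notch, N in the files, held none. The median length was 17699 bp.

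Of 25 X genes for neuronal proteins and channels, 7 (28.0%) held 8 summits. They were led by norpA (406), the adenylyl cyclase rut (249), the neuronal RNA-binding protein elav (203) and the potassium channel Ork1 (160), and the others were Appl (129), inaE (114) and dnc (93.6). The sodium channel para held none. The median length was 30139 bp. All 4 lists thus stood above the 7.7% of all X coding genes, and in all 4 the genes were longer than the X median of 2521 bp; the part of length was not tested. A summit with a core site was in 2 of the 6 hosts of the oogenesis list, 8 of 13 for transcription factors, 3 of 10 for signalling and 2 of 7 for neuronal proteins, and in 64 of all 169 hosts (37.9%). Promoter peaks were at 16 of 39, 17 of 35 and 9 of 25 genes of the last 3 lists, beside 28.6% of all X coding genes. None of these counts was tested. The lists hold 136 different genes, of which 7 are in more than 1.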

How the data were processed

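Peak lists of 2 ChIP-seq libraries on dm6 were used; the dm3 lists were not used here. Each relaxed list holds 30000 peaks and background, and the thresholded list of 4477 peaks was made by the authors from both replicates with the irreproducible discovery rate procedure, per the record deposited with each sample. The score is the authors' deposited value per peak in the column that the peak format gives to enrichment; what it is relative to is not stated, and it was used only for ranking within a list. The deposited −log10 q values were not used for any result. Neither the peak caller nor the limit applied is given in the sources used here, and read depth is unknown, so intervals cover the counting of peaks only.

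Summits were placed with the Ensembl release 115 annotation and the RefSeq Release 6 genome (19252 distinct coding TSS positions of 13945 genes), in Python 3.11.15 with numpy 2.4.6 and scipy 1.17.1. X was compared with the 4 large autosomal arms for density and with all autosomal arms for shares. Tests were two-sided: an exact conditional binomial test, Fisher's exact test and the exact McNemar test, with Benjamini-Hochberg adjustment over 7 comparisons. Peaks are not replicates of a condition. The functions were tested on simulated data.

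Named are the 20 members of highest score (1 of them is not reported here), genes and groups with 4 or more summits (gaps of at most 5 kb), and from each gene list the 4 highest hosts and the first gene without a summit. Of the list symbols, os and inaF were not matched. The members and lists were chosen with earlier results of these data known.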

Additional observations from a re-analysis of the deposited data

How the results depend on the processing

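Of 94 recomputed values under other TSS distances, lists, windows, merges and subsets, 77 kept their direction and side of 0.05. Those that did not are these, as ratios or odds ratios with adjusted p. The cause was not tested. With a TSS limit of 1000 bp, the share of peaks away from promoters was 1.19 (0.0770) and the core site 1.42 (0.0937); with 100 bp, the strongest 1000 gave 1.24 (0.0409), and with summits within 1 kb merged 1.34 (0.0499). By the ranks of replicate 1 the strongest 1000 gave 1.36 (0.0345). The core site gave 1.47 within 25 bp (0.0614), 1.29 outside the strongest 1000 (0.265) and 1.43 in introns (0.0888). It gave 1.84 outside protein-coding genes (0.103) and 1.38 for peaks 440 bp wide (0.0856). In a stricter list of the 2000 peaks of highest score, the intron share gave 0.983 (0.925) and the share in both replicates 0.791 (0.370), below 1 in place of above and past 0.05 in neither case. In ranks 15001 to 30000 of the pooled list, density gave 1.04 (0.137), the core site 1.09 (0.549) and the site against flanks 1.21 (exact McNemar p = 0.387).

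Using the best peaks of 1 replicate in place of both gave 1.52 to 1.59 for density, 1.15 to 1.29 for the share away from promoters, 1.03 to 1.14 for introns, 1.24 to 1.42 for the strongest 1000, 1.41 to 1.76 for the core site, 4.95 to 5.45 for the site against flanks and 1.45 to 1.80 for neighbours. Without replicate 4, the share away from promoters lost its call (0.0675) and the strongest 1000 gained one (0.0173). The count in both replicates needs both lists and was not computed in this way. No paired analysis was possible because there is 1 group. The subsets by rank, class and width, the ranks of single replicates, the weak end of the pooled list and the removal of the X groups were chosen after seeing the data.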

Other observations

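The X peaks away from promoters were unevenly spread along the chromosome. In bins of 1 Mb, the most were 35 in each of the bins starting at 12000001 and 13000001 bp, which held 22 and 35 promoter peaks, and 33 in the bin starting at 3000001 bp, which held 16. The bin starting at 14000001 bp held 5, beside 15 promoter peaks. Toward the centromeric end, the bins starting at 20000001 and 22000001 bp held 3 each, and the last, partial bin held 0 and 2 promoter peaks.

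Most of the peaks had a fixed width of 440 bp, and 42 X peaks (10.2%) and 77 autosomal ones (6.33%) were narrower. A core site was present in 52.4% of the narrower X peaks and 28.6% of the narrower autosomal ones, against 17.4% and 13.3% of peaks 440 bp wide. These sets were chosen after seeing the data.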
